A study of Mus musculus with 20 samples.

Results

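Long intergenic noncoding RNAs (lincRNAs) of the epididymal white adipose tissue (eWAT) were followed in 3 groups of mice. A lincRNA was taken in when GENCODE mouse release M21 gives its Ensembl gene the type lincRNA and its mean over all 20 mice was at least 1 FPKM, a read level scaled to exon length and library size. This left 126 of the 284 lincRNAs in the deposited table, which holds 14776 genes, and 158 lincRNAs lay under the limit. The members were therefore chosen on their measured mean level, and that level is given below as a description. Just inside the limit stood 4933406P04Rik at 1.01, 0610043K17Rik at 1.01 and Prr33 at 1.02 FPKM, and just outside it Gm49797 at 0.996, Gm47251 at 0.995 and Gm30122 at 0.992 FPKM.

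All animals were male C57BL/6J mice, 6 weeks old when feeding started. The 6 NC mice received maintenance feed, the 7 HFD mice a high-fat diet with 60% of its energy as fat for 14 weeks and then saline into the stomach for 6 more weeks on the same diet, and the 7 SZ-A mice that same high-fat diet with Ramulus Mori (Sangzhi) alkaloids, an extract of mulberry twig, at 400 mg/kg per day over the last 6 weeks. Each library is labelled as a separate sample of its group, and p-values measure the spread between these samples. The RNA was selected for poly(A) tails and the library kit named by the labels does not mark the strand, so a lincRNA and a transcript that overlaps it on the other strand cannot be told apart. A mouse had from 13567667 to 19388657 reads on the genes of the table.

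lincRNAs are transcribed, spliced and polyadenylated much like messenger RNAs but are annotated as noncoding, and many are kept in the nucleus. Some act as scaffolds for nuclear bodies, as Neat1 does for paraspeckles, some carry small nucleolar RNAs (snoRNAs) or microRNAs within them, and many start from the same promoter region as a coding gene that runs the other way. In adipose tissue, individual lincRNAs have been linked to adipocyte differentiation and to macrophages.

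All 15 adipocyte markers were in the table, with a mean level on the log2(FPKM + 1) scale of 5.88 or more in 19 of the 20 mice. NC replicate 6 stood apart and went against the label of the tissue, with an adipocyte level of 4.21 against 7.65 to 8.92 in the other NC mice, an endothelial level of 1.03 against 3.57 to 5.23, and a median correlation with the other mice of 0.697. Macrophage markers, 18 of 18 in the table, had a mean level of 1.95 to 4.40 (NC), 6.69 to 7.58 (HFD) and 5.21 to 6.61 (SZ-A). Of 13 epithelial markers 4 were in the table (Krt18, Krt19, Cdh1 and Spint2), and their mean level was 2.09 to 7.41 (NC), 1.09 to 1.89 (HFD) and 0.652 to 6.00 (SZ-A); the highest value, 7.41, was that of NC replicate 6. The level of 8 smooth muscle markers was 3.58 to 6.86 (NC), 1.80 to 2.93 (HFD) and 2.58 to 5.71 (SZ-A), and that of 10 fibroblast and preadipocyte markers 1.85 to 4.34, 5.21 to 5.56 and 3.79 to 4.82. Since the table lists only genes above 0 in every mouse, the markers it lacks cannot be read as absent. SZ-A replicate 5 stood apart by the lincRNAs themselves, with 0.551% of its reads on the members against 0.135% to 0.243% in the other 19 mice. Values without these 2 mice are given below for only some of the lincRNAs whose call, direction or value they change. A value printed alone may also shift without them, as that of Malat1 in HFD against NC did, from 0.22 to 0.04.

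The promoters of 4 lincRNAs past both thresholds in HFD against NC are shown here because they differ in the dinucleotide CG, which vertebrate genomes keep mainly in CpG island promoters. RefSeq (GRCm38.p6) gave a promoter, from 250 bases before to 50 after the start, for 74 of the 126 lincRNAs. Each promoter is written 5′ to 3′ on its own strand, with every CG in capitals. 1810044D09Rik (chr6:91440737-91441036, plus strand), Smkr-ps (chr6:29985079-29985378, plus strand) and 4831440E17Rik (chr5:25499547-25499846, plus strand) fell in HFD, and Gm36161 (chr13:120010092-120010391, plus strand) rose.
1810044D09Rik: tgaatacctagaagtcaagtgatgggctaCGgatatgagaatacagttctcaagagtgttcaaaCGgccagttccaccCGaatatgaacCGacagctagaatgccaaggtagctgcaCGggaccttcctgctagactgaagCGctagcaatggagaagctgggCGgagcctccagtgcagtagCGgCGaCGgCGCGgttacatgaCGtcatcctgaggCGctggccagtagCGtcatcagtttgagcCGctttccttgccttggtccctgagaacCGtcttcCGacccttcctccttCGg
Smkr-ps: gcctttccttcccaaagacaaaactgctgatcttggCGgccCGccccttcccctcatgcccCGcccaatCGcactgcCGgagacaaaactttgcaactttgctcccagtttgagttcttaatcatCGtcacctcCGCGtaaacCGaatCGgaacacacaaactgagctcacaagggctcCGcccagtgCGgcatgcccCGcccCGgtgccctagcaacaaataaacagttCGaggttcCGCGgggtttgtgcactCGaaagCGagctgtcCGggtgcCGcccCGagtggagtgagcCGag
4831440E17Rik: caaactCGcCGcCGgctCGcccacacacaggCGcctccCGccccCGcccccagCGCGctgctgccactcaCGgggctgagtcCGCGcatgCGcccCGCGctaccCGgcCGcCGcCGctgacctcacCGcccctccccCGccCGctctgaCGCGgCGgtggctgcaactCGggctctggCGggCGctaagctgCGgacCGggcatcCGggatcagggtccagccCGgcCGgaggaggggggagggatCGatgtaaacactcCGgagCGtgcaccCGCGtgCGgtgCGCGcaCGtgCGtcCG
Gm36161: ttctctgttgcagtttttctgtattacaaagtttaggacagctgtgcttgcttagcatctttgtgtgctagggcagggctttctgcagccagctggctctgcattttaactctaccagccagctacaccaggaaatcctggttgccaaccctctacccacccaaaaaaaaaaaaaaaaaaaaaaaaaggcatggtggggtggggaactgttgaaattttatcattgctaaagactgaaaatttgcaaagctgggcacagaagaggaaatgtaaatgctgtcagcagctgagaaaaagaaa
The CG count was 19 in 1810044D09Rik, 23 in Smkr-ps and 44 in 4831440E17Rik, and 0 in Gm36161. The RefSeq start lay 730 bases from that of GENCODE in 4831440E17Rik and 48 bases from it in Gm36161. For 1700047G03Rik, which rose, the 2 starts lay 2786 bases apart and its promoter is not shown.

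Over all 32851 RefSeq promoters the median CG count was 7, and over the 86 promoters of the members it was 10.5. The 30 promoters of members that fell in HFD (tests below) had a median of 23.5, and 66.7% of them held at least 15 CG, against a median of 6.5 and 26.8% in the 56 promoters of the other members. Promoters of protein-coding genes had a median of 13 and 46.8% with at least 15. Motifs were searched on both strands. CCAAT stood in 40.7% of the member promoters and 37.4% of all, TATAAA in 9.30% and 13.6%, the nuclear receptor motif AGGTCA in 14.0% and 16.3%, the AP-1 motif TGANTCA in 8.14% and 7.81%, the PU.1 motif GAGGAAGT in 1.16% and 3.20%, and the C/EBP motif TTGCNNCAA in 3.49% and 2.08%. Of the shown promoters, Smkr-ps held CCAAT with its first base at -186, and 4831440E17Rik held AGGTCA at -133. The palindrome TGACGTCA, a cAMP response element searched for after it was seen at -48 in 1810044D09Rik, stood in 2 of the 86 member promoters (2.33%) and in 1.79% of all promoters. These matches describe the letters only.

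Most of the lincRNAs were scarce. The median of their means was 2.10 FPKM, 97 were under 5 FPKM and 8 reached 20 FPKM. Exons summed to between 252 and 20771 bases, with a median of 1571, and 26 members had a single exon block. RefSeq classed 76 of them as long noncoding, 11 as protein-coding and 2 as a form of pseudogene, and 37 had no match. In 56 members at least 1 mouse had under 10 reads, whereas 29 had at least 50 reads in every mouse. A mean of at least 1 FPKM was reached by 116 members among NC, 89 among HFD and 121 among SZ-A mice, and by 81 in all 3 groups. The median SD of log2(FPKM + 1) within the NC, HFD and SZ-A groups was 0.468, 0.256 and 0.462, against 0.395, 0.199 and 0.337 for the 11479 coding genes that reached the same mean.

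The most abundant lincRNA was 2900097C17Rik, which RefSeq names Norad, an RNA that binds Pumilio proteins and protects genome stability. It had 28.5, 33.0 and 42.8 FPKM (lowest, median and highest) in NC, 35.5, 43.1 and 50.2 in HFD and 27.2, 35.6 and 40.8 in SZ-A. The groups overlapped, and HFD was higher than NC by 0.32 ± 0.12 on the log2 scale (SE, adjusted p = 0.0477). 1810058I24Rik, which RefSeq classes as protein-coding, had medians of 27.0, 38.0 and 42.3 FPKM in NC, HFD and SZ-A and was higher in HFD than in NC by 0.46 ± 0.12 (adjusted p = 0.00927). The call of 2900097C17Rik was lost without NC replicate 6 (0.32, adjusted p = 0.056), and with the epithelial marker level as a covariate neither passed (adjusted p = 0.114 and 0.487). AW112010, known from activated immune cells, had medians of 18.4, 27.8 and 26 FPKM and did not pass the test in any comparison (adjusted p = 0.211, 0.804 and 0.364). Gm10076, listed by RefSeq as a pseudogene, ranged from 6.57 to 71.2 FPKM over all mice and passed no test either.

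The first question was which lincRNAs changed with the high-fat diet. Compared with NC, 51 lincRNAs were lower and 13 higher in HFD mice by adjusted p under 0.05, and 62 did not pass. Some members reached the limit of 1 FPKM only through the groups where they were high. Of the 81 with a mean of at least 1 FPKM in all 3 groups, 31 were lower and 7 higher. Over all 14706 genes tested, 20.1% were lower and 21% higher. With the limit of 1.5 on the log2 fold change added, 8 lincRNAs fell and 3 rose, beside 2.54% lower and 5.43% higher of all genes. The median log2 fold change was -0.45 over the lincRNAs and -0.04 over all genes. The values of the 2 groups did not overlap for 25 lincRNAs that were lower and 5 that were higher, against 7.77% and 12.7% of all genes. Bulk tissue cannot tell fewer cells of a type from less RNA per cell. The levels of the epithelial (4 of 4 lower), smooth muscle (6 of 8 lower), macrophage (17 of 18 higher) and fibroblast markers (7 of 10 higher, 2 lower) did not overlap between NC and HFD, and the part of the last 3 in the lincRNA changes was not tested. With the epithelial level as a covariate 27 lincRNAs were lower and 3 higher, and 18 calls were shared with those above, so this covariate and the diet cannot be told apart. The median log2 fold change was then -0.40 over the lincRNAs and 0.02 over all genes. Shares of all genes, here and below, are those of fits with all mice of the 2 groups and without the covariate. The share called with the covariate or with mice left out was not counted. Without NC replicate 6, 69 lincRNAs passed by adjusted p and 9 passed both thresholds.

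**Figure D1:**
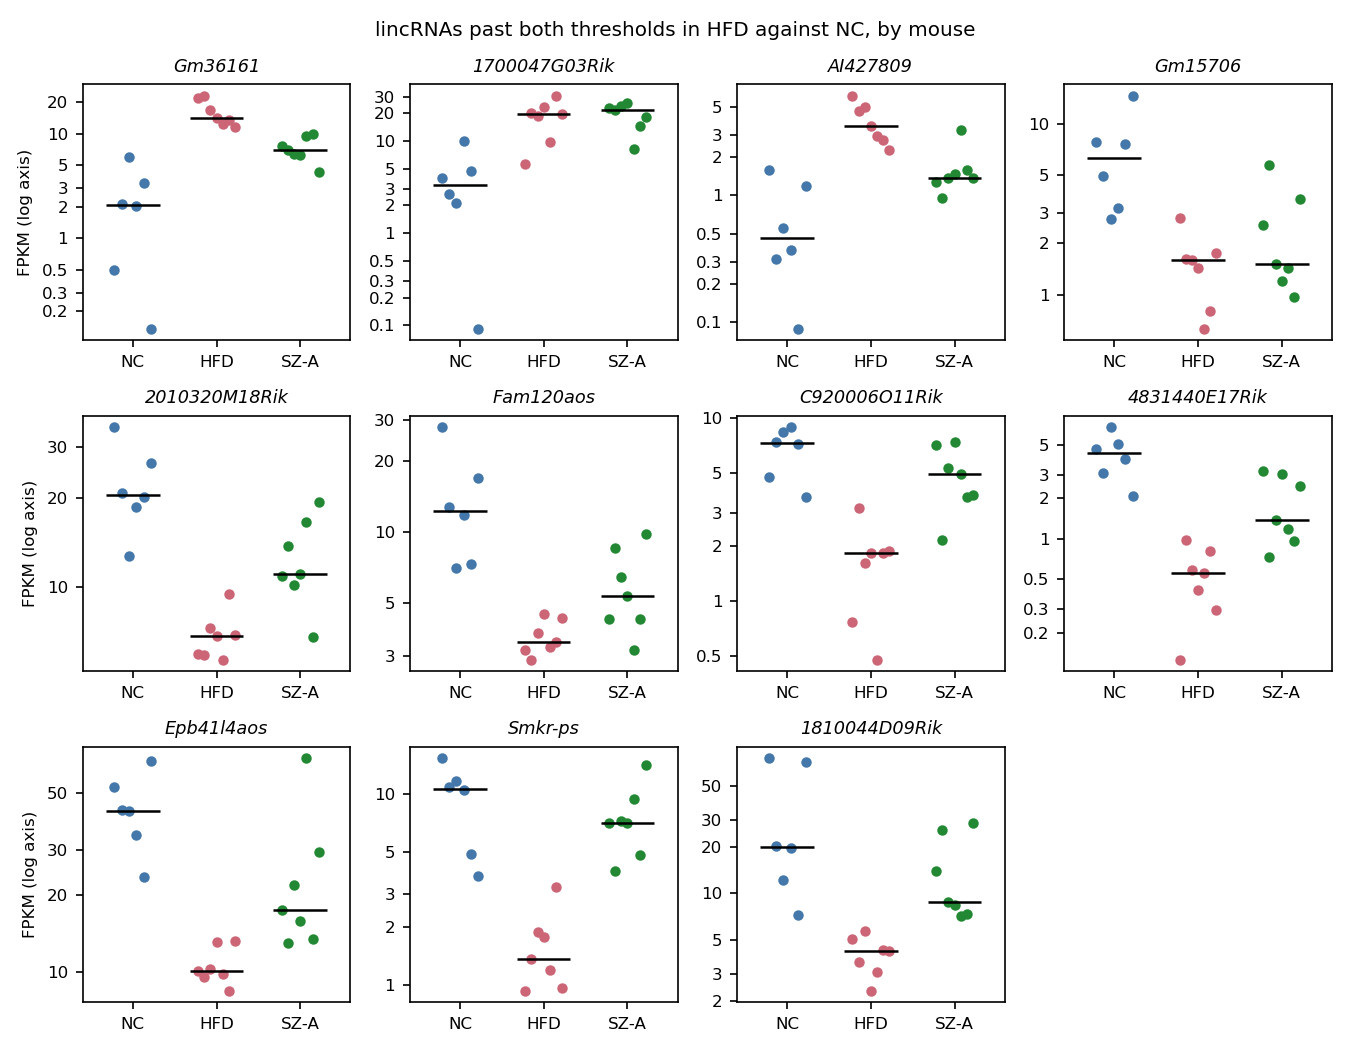
FPKM of each mouse on a log axis for the 11 lincRNAs past both thresholds in HFD against NC; points are mice and bars group medians. In the 3 top left panels the HFD mice sit above the NC medians, and in the other 8 below them, with the SZ-A medians between those of NC and HFD in 9 of the 11 panels.

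The largest rise was that of Gm36161, an uncharacterised lincRNA of 4 exon blocks (chr13:120010390-120018931, GRCm38, plus strand). Its FPKM were 0.136, 2.08 and 5.98 in NC (lowest, median, highest), 11.6, 14.2 and 22.8 in HFD and 4.27, 6.91 and 10 in SZ-A. Every HFD mouse lay above every NC and every SZ-A mouse. The log2 fold change was 2.57 ± 0.36 (SE, adjusted p = 9.36e-05) in HFD against NC and -1.05 ± 0.18 (adjusted p = 0.00163) in SZ-A against HFD. SZ-A mice remained above NC by 1.52 ± 0.36 (adjusted p = 0.027), and this call was lost without NC replicate 1, NC replicate 2, SZ-A replicate 3 or SZ-A replicate 6, and without both NC replicate 6 and SZ-A replicate 5 (1.2, adjusted p = 0.0505). Gm21370 on the other strand shares 10.9% of the exon bases, and NC replicate 6 had the lowest value. With the epithelial marker level as a covariate the rise in HFD was 0.72 and did not pass (adjusted p = 0.269).

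1700047G03Rik (chr15:11964276-11970086, plus strand) had 0.0919, 3.31 and 10.1 FPKM in NC, 5.70, 19.7 and 30.7 in HFD and 8.17, 21.8 and 26 in SZ-A. It was high in both groups on the high-fat diet, with an overlap of NC with each of them. The log2 fold change was 2.12 ± 0.48 in HFD (adjusted p = 0.00308) and 2.28 ± 0.43 in SZ-A (adjusted p = 0.00792), both against NC, and the difference between SZ-A and HFD was 0.16 ± 0.32 (adjusted p = 0.747). Among the lincRNAs that passed between SZ-A and NC this was the largest difference. With the epithelial covariate the difference of HFD from NC was 1.66 and did not pass (adjusted p = 0.256).

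AI427809, named Mexis by RefSeq, is a lincRNA of macrophages that responds to the oxysterol receptor LXR and is known to act on Abca1, the exporter of cellular cholesterol. It lies on chr4:53261356-53270232, minus strand, 101461 bases from Abca1, its nearest coding gene. Its FPKM were 0.0887, 0.461 and 1.60 in NC, 2.31, 3.56 and 6.08 in HFD and 0.963, 1.38 and 3.30 in SZ-A. All 7 HFD mice lay above all NC mice, while HFD and SZ-A overlapped through SZ-A replicate 5. The log2 fold change was 1.55 ± 0.23 in HFD against NC (adjusted p = 0.000135) and -0.89 ± 0.19 in SZ-A against HFD (adjusted p = 0.0049), or -1.02 without NC replicate 6 and SZ-A replicate 5. Abca1 itself was higher by 0.62 in HFD (adjusted p = 0.0462) and fell by 0.70 in SZ-A against HFD (adjusted p = 0.0191). Macrophage markers moved the same way, 17 of 18 higher in HFD and 16 lower in SZ-A, and their part in the change of AI427809 was not tested.

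Gm5086 (chr13:97559971-97583996) followed the same order, with medians of 0.301 (NC), 1.84 (HFD) and 0.932 (SZ-A) FPKM. No NC mouse exceeded 0.355 and no HFD mouse fell under 1.44. Only the HFD mean of Gm5086 reached 1 FPKM, so it entered the set through the group where it was high, and its values are given as a description. It rose by 1.22 ± 0.11 in HFD (adjusted p = 1.63e-06) and fell by 0.61 ± 0.15 in SZ-A against HFD (adjusted p = 0.0124). SZ-A stood above NC by 0.62 ± 0.15 (adjusted p = 0.0304), a call lost in 6 of 13 fits that each left out 1 mouse. Among the smaller rises, Gm11496 rose by 0.84 ± 0.17, Gm20707 by 0.74 ± 0.16, Gm17501 by 0.68 ± 0.21 and Gm42047 by 0.76 ± 0.27 in HFD against NC. Gm20707 shares 11.2% of its exon bases with the coding gene Zfp984 on the same strand, which also rose (0.76, adjusted p = 0.00919). The call of Gm42047 (adjusted p = 0.0376) was lost in 9 of 13 such fits, one of them without NC replicate 6 (0.73, adjusted p = 0.0518). The differences of Gm11496, Gm20707, Gm17501 and Gm42047 with that covariate were 0.88, 0.63, 0.33 and 0.22, and none passed (adjusted p = 0.0985, 0.201, 0.615 and 0.811). Dubr, a lincRNA known from muscle differentiation, rose by 0.63 ± 0.16 (adjusted p = 0.00585), with 2.65 to 5.45 FPKM in NC and 4.30 to 7.68 in HFD, and had 0.68 with the covariate (adjusted p = 0.156).

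The largest fall was that of 1810044D09Rik (chr6:91440987-91441755, plus strand), whose CG-rich promoter is printed above. It had 7.24, 20.1 and 75.9 FPKM in NC, 2.32, 4.20 and 5.70 in HFD and 7.09, 8.72 and 28.9 in SZ-A. The HFD mice lay below all mice of both other groups. The log2 fold change was -2.37 ± 0.46 (adjusted p = 0.00119) in HFD against NC and 1.44 ± 0.30 (adjusted p = 0.00425) in SZ-A against HFD. SZ-A replicates 7 and 2 had the highest values of their group, 28.9 and 25.9 FPKM, and also its highest epithelial levels, 6.00 and 5.69. In NC the same held for replicates 1 and 6, with 75.9 and 71.9 FPKM and levels of 6.8 and 7.41. A link between the 2 measures was not tested. With the epithelial covariate the fall of 1810044D09Rik was -0.60 (adjusted p = 0.621) and the rise 1.01 (adjusted p = 0.00791). Its nearest coding gene Chchd4, needed for protein import into mitochondria, differed by -0.05 (adjusted p = 0.784).

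Smkr-ps, whose symbol marks it as a pseudogene, was the lincRNA past both thresholds in both HFD against NC and SZ-A against HFD. It lies on chr6:29985329-29993776, plus strand, and GENCODE places a predicted microRNA, Gm23049, within it. Its FPKM were 3.71, 10.7 and 15.4 in NC, 0.930, 1.37 and 3.27 in HFD and 3.95, 7.08 and 14.3 in SZ-A. No HFD mouse reached the lowest mouse of either other group, and NC and SZ-A overlapped. It fell by 1.92 ± 0.29 on the log2 scale in HFD (adjusted p = 0.000166), rose by 1.69 ± 0.23 in SZ-A against HFD (adjusted p = 0.000459) and differed by -0.23 ± 0.32 between SZ-A and NC (adjusted p = 0.73). With the epithelial covariate the fall was -2.33 (adjusted p = 0.0165) and the rise 1.63 (adjusted p = 0.00197).

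C920006O11Rik (chr9:78175914-78178879, plus strand) and 4831440E17Rik (chr5:25499067-25501541, plus strand) kept their falls under that covariate too. C920006O11Rik had medians of 7.30, 1.82 and 4.92 FPKM in NC, HFD and SZ-A; its 7 HFD mice, at most 3.20, lay below all NC mice, at least 3.71. It fell by 1.57 ± 0.24 in HFD (adjusted p = 0.000217) and rose by 1.16 ± 0.24 in SZ-A against HFD (adjusted p = 0.00448). 4831440E17Rik had medians of 4.32, 0.555 and 1.37 FPKM; its HFD mice reached 0.987 and its NC mice began at 2.07. It fell by 1.74 ± 0.20 (adjusted p = 1.61e-05) and rose by 0.83 ± 0.21 (adjusted p = 0.0106). Under the covariate the falls were -2.12 (adjusted p = 0.00924) and -2.59 (adjusted p = 0.0003).

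Of the lincRNAs that passed the adjusted p alone in HFD against NC, the largest falls were those of E230001N04Rik, D730003I15Rik, Snhg12, Snhg20 and 1300002E11Rik. E230001N04Rik lies 5193 bases from Fkbp5, a co-chaperone induced by glucocorticoids, and shares 12.4% of its exon bases with Gm20109. Only the NC mean of E230001N04Rik reached 1 FPKM, so it entered the set through the group where it was high, and its values are given as a description. It had 0.726 to 5.23 FPKM in NC and 0.0381 to 0.335 in HFD. E230001N04Rik fell by 1.39 ± 0.27 (adjusted p = 0.000999) and Fkbp5 by 1.82 (adjusted p = 0.00085). The difference of E230001N04Rik with the covariate was -0.28 and did not pass (adjusted p = 0.675). D730003I15Rik lies 6415 bases from Atf3, a stress-induced transcription factor. It fell by 1.38 ± 0.41 in HFD (adjusted p = 0.0163) and rose by 0.98 ± 0.19 in SZ-A against HFD (adjusted p = 0.003), while Atf3 rose by 5.24 (adjusted p = 1.05e-08) and fell by 1.54 (adjusted p = 0.018). With the covariate the direction of D730003I15Rik in HFD against NC turned, to 0.49 (adjusted p = 0.60). 1300002E11Rik, inside the Map3k13 locus, had 3.88 to 6.14 (NC), 1.02 to 1.90 (HFD) and 1.82 to 4.52 (SZ-A) FPKM. NC and HFD did not overlap, and SZ-A overlapped both. 1300002E11Rik fell by 1.25 ± 0.11 in HFD (adjusted p = 1.39e-06), and Map3k13 by 0.22 (adjusted p = 0.0143).

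Of the 109 nearest coding genes tested, 29 (26.6%) were lower and 24 (22%) higher in HFD, beside 20.1% and 21% of all genes. Their median log2 fold change was -0.03, close to that of all genes. In SZ-A against HFD 17 (15.6%) were lower and 5 (4.59%) higher, beside 13.3% and 9.47% of all genes.

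A total of 33 lincRNAs started within 1 kb of the start of a coding gene on the other strand, where one promoter region can serve both. Whether it does was not tested, and pairs that overlap at their starts were not set aside. In HFD against NC 20 of these lincRNAs were lower and 1 was higher, and their median log2 fold change was -0.74; over all genes 20.1% were lower and 21% higher. Under the epithelial covariate 4 of the 33 were lower and none was higher, with a median of -0.35. Of their 33 coding partners 7 were lower, 7 higher and 19 not called, with a median of 0.15. Where the lincRNA fell, the partner fell in 3 pairs, rose in 4 and was not called in 13. Among the 93 other lincRNAs 31 were lower and 12 higher, with a median of -0.33. The 20 promoters that RefSeq gave for the 33 lincRNAs had a median of 35 CG, and 90.0% of these held at least 15.

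**Figure D2:**
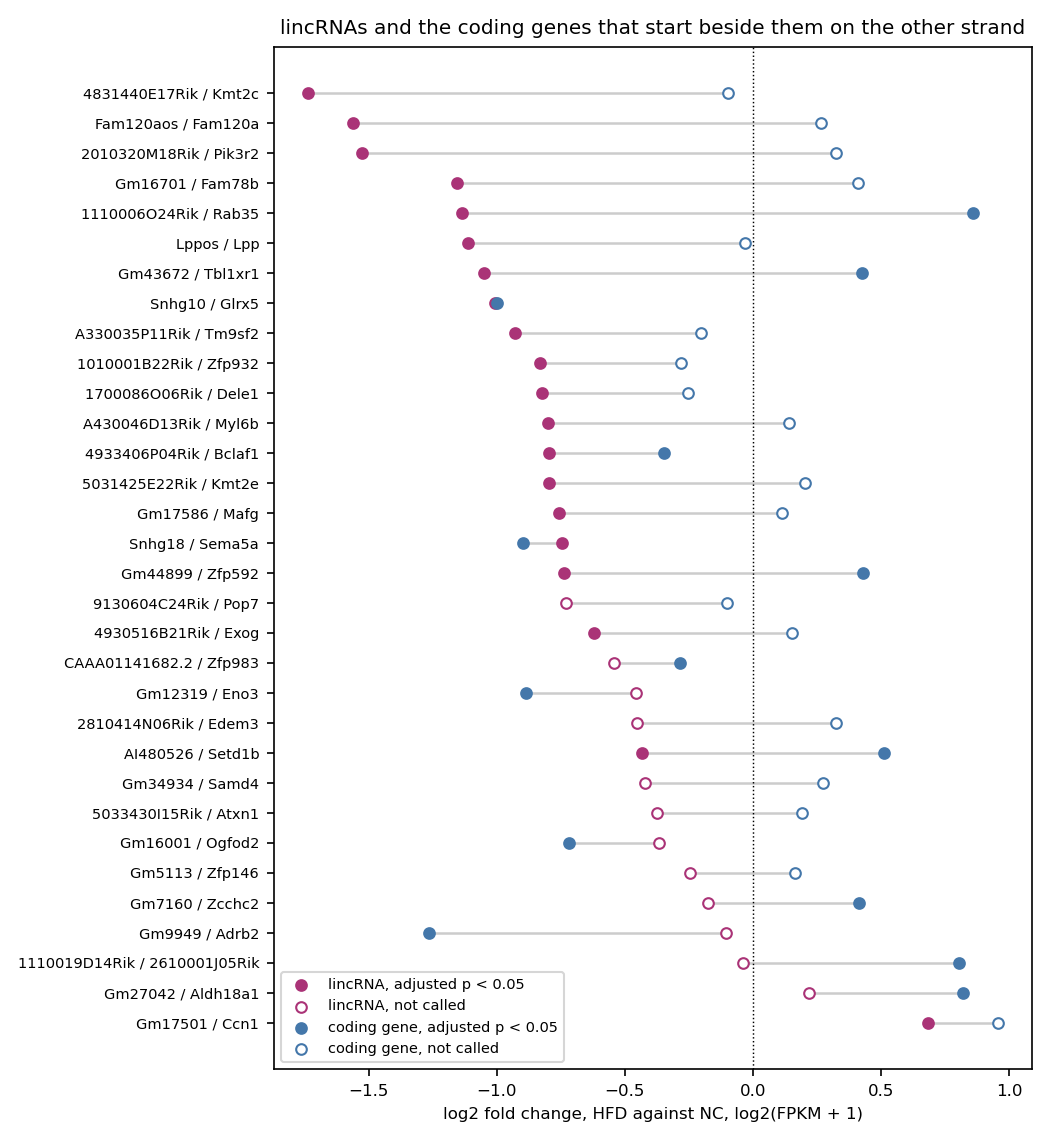
log2 fold change of HFD against NC for 32 of the 33 lincRNAs (purple) and for the coding genes that start within 1 kb on the other strand (blue), sorted by the lincRNA; filled points had an adjusted p under 0.05. The lincRNAs lie left of 0 in 30 of these pairs, whereas the coding genes lie on both sides.

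Of the pairs whose lincRNA passed both thresholds, 3 were compared mouse by mouse through the log2 ratio of lincRNA to partner. This ratio is the difference of their log2(FPKM + 1) values, so for scarce RNAs it departs from the ratio of FPKM. It serves as a description, since the pairs were chosen for the change of the lincRNA. 2010320M18Rik (chr8:70776815-70777823) starts 102 bases from Pik3r2, a regulatory subunit of PI 3-kinase. Its FPKM were 12.7, 20.5 and 35.0 in NC, 5.65, 6.81 and 9.44 in HFD and 6.77, 11.1 and 19.4 in SZ-A. All HFD mice lay below all NC mice. The lincRNA fell by 1.53 ± 0.19 (adjusted p = 3.65e-05) and Pik3r2 differed by 0.32 ± 0.21 (adjusted p = 0.226). The log2 ratio ran from 0.28 to 1.42 in NC, from -1.62 to -0.48 in HFD and from -0.84 to 0.53 in SZ-A.

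Fam120aos (chr13:48968287-48972031) starts 270 bases from Fam120a, which codes for an RNA-binding protein. It had 7.07, 12.3 and 27.9 FPKM in NC, 2.88, 3.43 and 4.49 in HFD and 3.18, 5.36 and 9.83 in SZ-A. No HFD mouse reached the lowest NC mouse. It fell by 1.56 ± 0.25 (adjusted p = 0.000306), while Fam120a had medians of 44.8 FPKM in NC and 51.2 in HFD (adjusted p = 0.0728). Gm15706, an uncharacterised lincRNA of this group, had 2.77, 6.30 and 14.5 FPKM in NC, 0.634, 1.60 and 2.82 in HFD and 0.973, 1.51 and 5.74 in SZ-A, and 1 HFD mouse lay above the lowest NC mouse. It fell by 1.51 ± 0.31 (adjusted p = 0.00155) and did not pass in SZ-A against HFD (0.36 ± 0.26, adjusted p = 0.333). With the epithelial covariate the falls of 2010320M18Rik, Fam120aos and Gm15706 were -0.64, -0.43 and -0.28 and did not pass.

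4831440E17Rik starts 284 bases from Kmt2c, a histone methyltransferase, whose medians were 3.69 (NC), 3.35 (HFD) and 3.28 (SZ-A) FPKM. The mean log2 ratio to the partner was lower in HFD than in NC by 1.64 for 4831440E17Rik, 1.83 for Fam120aos and 1.85 for 2010320M18Rik. In these 3 pairs the highest ratio of the HFD mice lay below the lowest of the NC mice. In another pair, picked after its values were seen, 1110006O24Rik fell by 1.14 (adjusted p = 0.0145) while Rab35, a small GTPase of endosome recycling, rose by 0.86 (adjusted p = 9.3e-05), but with the epithelial covariate 1110006O24Rik differed by 0.13 (adjusted p = 0.896). Snhg10 was a contrary case, falling by 1.01 ± 0.15 beside Glrx5, an iron-sulfur cluster glutaredoxin of mitochondria, which fell by 1.0 ± 0.22.

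snoRNA hosts are spliced RNAs whose introns release the small RNAs that guide modification of ribosomal RNA. A total of 7 members held a snoRNA or scaRNA gene or a symbol starting with Snhg. In HFD against NC 6 of the 7 were lower and none higher, with a median log2 fold change of -1.01, and in 5 the groups did not overlap, beside 20.1% of all genes lower and 7.77% lower without overlap. Under that covariate 4 of the 7 were lower. Epb41l4aos, on chromosome 18, had 23.5, 42.8 and 67.0 FPKM in NC, 8.47, 10.1 and 13.3 in HFD and 13.0, 17.5 and 68.6 in SZ-A. Its HFD mice lay below all NC mice. It fell by 1.89 ± 0.20 (adjusted p = 8.93e-06), as did its neighbour Epb41l4a (-1.36, adjusted p = 0.000415).

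**Figure D3:**
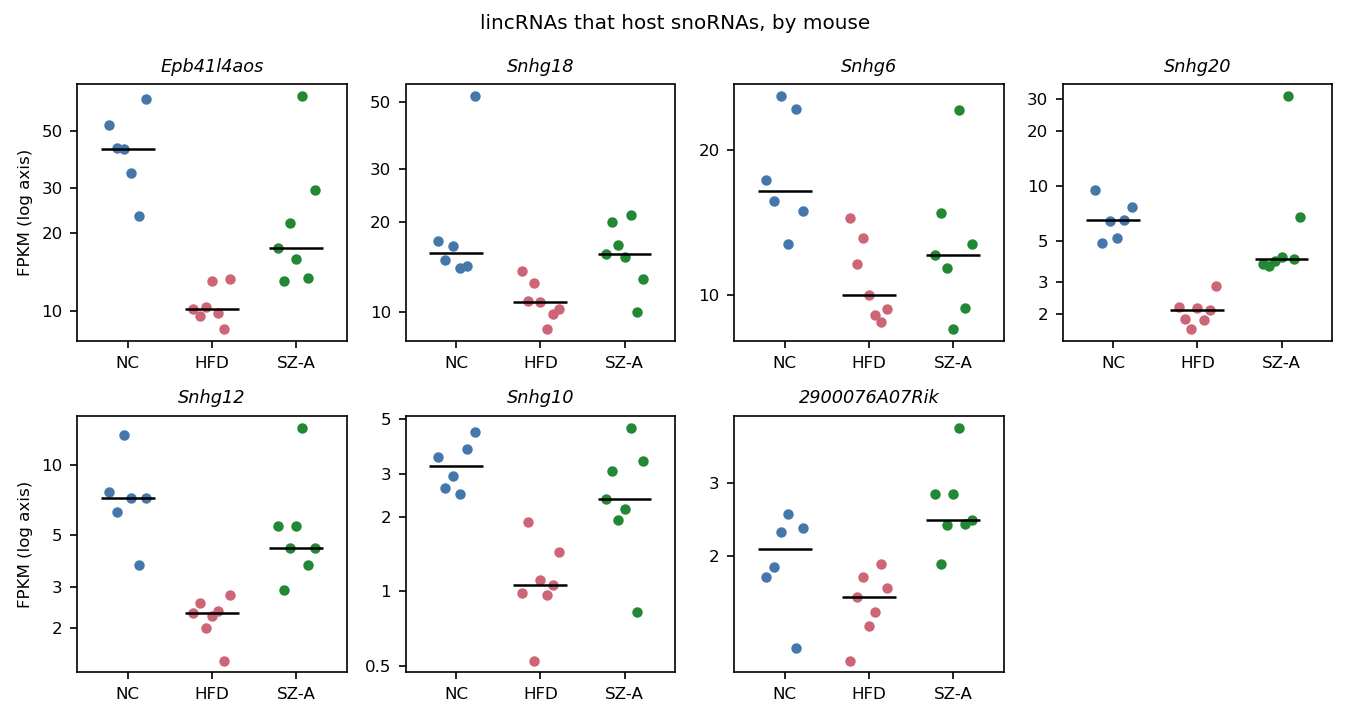
FPKM of each mouse on a log axis for the 7 snoRNA host lincRNAs; points are mice and bars group medians. The HFD median is the lowest of the 3 medians in every panel.

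Snhg12 had 3.72, 7.23 and 13.5 FPKM in NC, 1.45, 2.32 and 2.76 in HFD and 2.92, 4.43 and 14.5 in SZ-A, and Snhg20 had 4.90, 6.49 and 9.49, then 1.64, 2.10 and 2.83, then 3.65, 3.99 and 31.1. In both, the HFD mice lay below every mouse of the other groups. Snhg12 fell by 1.34 ± 0.20 (adjusted p = 0.000178) and Snhg20 by 1.30 ± 0.14 (adjusted p = 9.91e-06) in HFD. In SZ-A against HFD Snhg12 rose by 0.95 ± 0.23 (adjusted p = 0.0104) and Snhg20 by 1.15 ± 0.35 (adjusted p = 0.0296). SZ-A replicate 5 held the highest value of both; without it and NC replicate 6 the rise of Snhg20 was 0.78 (adjusted p = 0.000956) and that of Snhg12 0.73 (adjusted p = 0.00161). Snhg10, Snhg18 and Snhg6 fell by 1.01, 0.74 and 0.68 in HFD against NC. Snhg18 was highest, at 52.2 FPKM, in NC replicate 6, and without that mouse it fell by 0.46 (adjusted p = 0.00554). With the covariate Snhg10 and Snhg18 did not pass (-0.77 and -0.11, adjusted p = 0.0937 and 0.907). 2900076A07Rik, host of Mir1839, differed by -0.22 ± 0.12 (adjusted p = 0.155). In SZ-A against HFD 6 of the 7 hosts rose, beside 9.47% of all genes, and 4 did with the covariate. Snhg6 differed by 0.21 ± 0.19 (adjusted p = 0.422). The call of Snhg20 was lost in 4 of 14 fits that each left out 1 mouse. Mcmdc2 on the other strand shares 11.1% of the exon bases of Snhg6, and Gm37829 shares 14.5% of those of 2900076A07Rik.

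The same family has members that GENCODE classes otherwise. Gas5, a host RNA known to accumulate when cells stop growing, fell by 1.10 ± 0.18 (adjusted p = 0.000362), Snhg8 by 1.48 ± 0.20, Snhg5 by 1.31 ± 0.20, Snhg1 by 1.0 ± 0.19 and Snhg11 by 1.45 ± 0.42 in HFD against NC. Snhg15 and Snhg17 differed by 0.14 ± 0.19 and -0.25 ± 0.12 and did not pass (adjusted p = 0.589 and 0.117).

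The microRNA hosts comprised 7 members. The mature microRNAs of 3 of them, from RefSeq, are printed because the host is what was counted here and the small RNA, which poly(A) selection does not capture, is what is known to act. Capitals mark the seed, bases 2 to 8.
let-7a-5p, host 6720427I07Rik: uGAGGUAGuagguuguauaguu
let-7d-5p, host 6720427I07Rik: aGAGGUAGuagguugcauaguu
let-7f-5p, host 6720427I07Rik: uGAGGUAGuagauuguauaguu
miR-142a-3p, host Mir142hg: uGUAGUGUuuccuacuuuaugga
miR-101a-3p, host E130102H24Rik: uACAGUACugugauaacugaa
The 3 let-7 members share 1 seed. Their host 6720427I07Rik had 1.52, 2.8 and 3.38 FPKM in NC, 1.13, 1.49 and 1.81 in HFD and 0.850, 2.16 and 5.71 in SZ-A. The groups overlapped, and the host fell by 0.51 ± 0.13 in HFD (adjusted p = 0.00795), with 0.39 ± 0.20 in SZ-A against HFD (adjusted p = 0.164). E130102H24Rik, host of miR-101a, differed by -0.50 ± 0.33 in HFD (adjusted p = 0.24). Over the 7 hosts, 4 were lower in HFD and 4 higher in SZ-A against HFD by adjusted p, beside 20.1% and 9.47% of all genes; Snhg10 and Snhg20 count here and among the snoRNA hosts.

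Mir142hg, host of the blood-cell microRNA miR-142, had 0.510, 2.71 and 5.55 FPKM in NC, 2.26, 5.79 and 12.5 in HFD and 1.82, 4.67 and 111 in SZ-A. The value of 111 was that of SZ-A replicate 5, and the next SZ-A mouse had 8.49. It did not pass in HFD against NC (0.89 ± 0.39, adjusted p = 0.08) or in SZ-A against HFD (0.38 ± 0.65, adjusted p = 0.692), where its direction turned without SZ-A replicate 5 (-0.25, adjusted p = 0.593). Bvht, a lincRNA known from heart development, had medians of 23.5, 11.3 and 18.8 FPKM in NC, HFD and SZ-A. Its difference between HFD and NC was -0.72 (adjusted p = 0.147), and it passed without NC replicate 6 (-1.09, adjusted p = 0.00265). No lincRNA of the imprinted domains listed for this work, such as H19 or Meg3, was among the members.

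Neat1 and Malat1, both retained in the nucleus, were among the 8 most abundant members, and with all mice they passed the test in no comparison. Neat1 had 8.60, 23.1 and 36.5 FPKM in NC, 5.70, 14.2 and 20 in HFD and 4.70, 25.1 and 178 in SZ-A. Malat1 had 8.02, 17.8 and 41.5 in NC, 14.6, 22.2 and 26.8 in HFD and 8.53, 25.3 and 65.1 in SZ-A. Both were highest in SZ-A replicate 5, and the other mice of the 3 groups overlapped. Neat1 differed by -0.64 ± 0.32 in HFD against NC (adjusted p = 0.13) and by 0.88 ± 0.53 in SZ-A against HFD (adjusted p = 0.237), and Malat1 by 0.22 ± 0.33 and 0.25 ± 0.34 (adjusted p = 0.618 and 0.61). Without NC replicate 6 Neat1 passed in HFD against NC, with -0.87 (adjusted p = 0.0207). Without SZ-A replicate 5 Neat1 and Malat1 differed by 0.41 and 0.02 between SZ-A and HFD (adjusted p = 0.39 and 0.967). Both passed, under the epithelial covariate, as lower in HFD than in NC, Neat1 with -1.80 (adjusted p = 0.0393) and Malat1, whose direction turned, with -1.37 (adjusted p = 0.043).

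**Figure D4:**
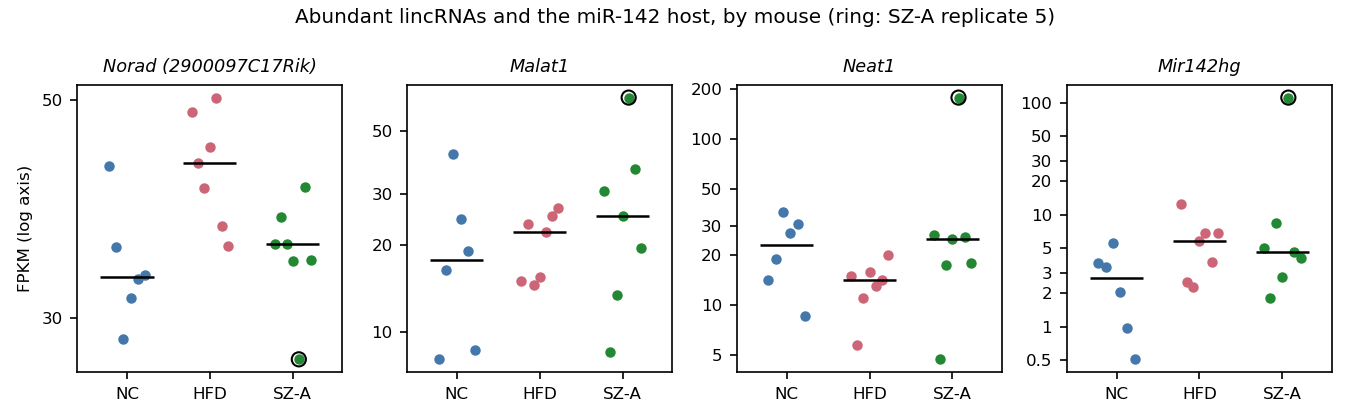
FPKM of each mouse on a log axis for Norad, Malat1, Neat1 and Mir142hg; points are mice, bars group medians, and the ring marks SZ-A replicate 5. That mouse is the highest of all in Malat1 (65.1), Neat1 (178) and Mir142hg (111), and the lowest in Norad (27.2).

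SZ-A replicate 5 gave the highest of the 20 values in 36 of the 126 lincRNAs, and NC replicate 6 the highest in 18 and the lowest in 18. Without SZ-A replicate 5, 5 members would have had a mean under 1 FPKM, and without NC replicate 6, 6 members. The summed FPKM of the members ran from 667.9 to 841.5 (NC), 448.1 to 546.5 (HFD) and 554.0 to 1300 (SZ-A), where the second highest mouse had 676.1. The HFD sums lay below those of every other mouse.

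The second question was what SZ-A changed under the high-fat diet. In SZ-A against HFD 33 lincRNAs were higher and 3 lower by adjusted p, and 90 did not pass. Of the 81 with a mean of at least 1 FPKM in all 3 groups, 24 were higher and 1 lower. Of all 14695 genes tested 9.47% were higher and 13.3% lower. With the fold limit added, Smkr-ps alone was higher and none was lower, beside 0.306% and 0.558% of all genes. The median log2 fold change was 0.37 over the lincRNAs and 0.03 over all genes. The 2 groups did not overlap in 7 lincRNAs that were higher and 1 that was lower, against 2.07% and 4.01% of all genes. Without NC replicate 6 and SZ-A replicate 5, 38 were higher and 5 lower. This comparison shares its HFD mice with the first, so opposite signs in the 2 comparisons are in part built in.

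The 33 rises ran from 0.36 to 1.69 on the log2 scale. Besides Smkr-ps, 1810044D09Rik, C920006O11Rik, Snhg20 and D730003I15Rik, they included Gm44956, which lies 13867 bases from Irs2, an adaptor of the insulin receptor. Gm44956 had 1.45, 3.34 and 6.80 FPKM in NC, 0.405, 0.997 and 3.92 in HFD and 1.14, 3.69 and 10.2 in SZ-A, with overlapping groups. It rose by 1.06 ± 0.33 (adjusted p = 0.0328), a call lost in 7 of 14 fits that each left out 1 mouse, and Irs2 differed by 0.64 (adjusted p = 0.10). The 3 falls were those of Gm36161, AI427809 and Gm5086 given above. Of the 33 lincRNAs beside a coding gene start, 12 rose and none fell, while 2 of their partners rose, 5 fell and 26 were not called.

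**Figure D5:**
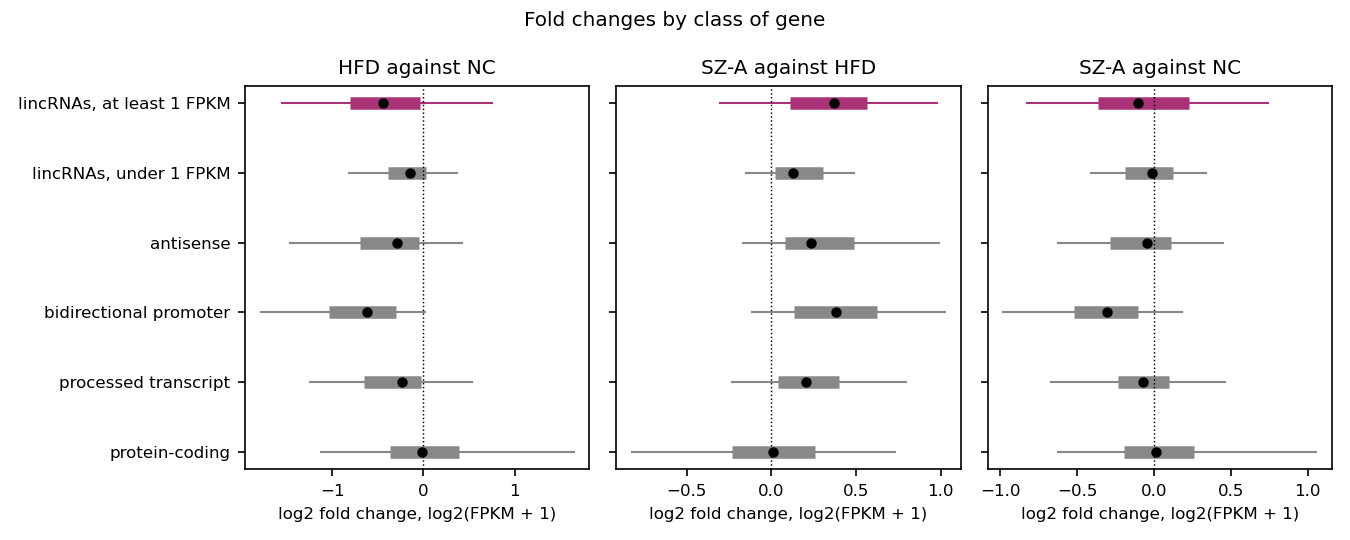
log2 fold changes on the log2(FPKM + 1) scale by class of gene in the 3 comparisons; dots are medians, thick bars the interquartile range and thin bars the 5th to 95th percentile. The lincRNAs (purple) have medians of -0.45, 0.37 and -0.11, and coding genes -0.01, 0.01 and 0.01.

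Other classes of noncoding RNA were set beside the lincRNAs. In HFD against NC 66.7% of 60 bidirectional promoter lncRNAs, 42.9% of 273 antisense RNAs, 42.1% of 183 processed transcripts and 31.2% of 154 lincRNAs under 1 FPKM were lower, against 40.5% of the 126 lincRNAs and 19.1% of 13013 coding genes. In SZ-A against HFD the shares that were higher were 40.7%, 28.8%, 19.2% and 11.7% in those classes, 26.2% in the lincRNAs and 8.91% in coding genes. Processed pseudogenes (563) had 10.7% lower in the first comparison and 1.95% higher in the second, and genes of the type TEC, still to be checked by experiment, 23.9% of 138 and 9.35% of 139. No difference between the classes was tested.

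The third question was what still separated SZ-A mice from NC mice. Of the 126 lincRNAs, 3 were higher (1700047G03Rik, Gm36161 and Gm5086) and 2 lower by adjusted p, and 121 did not pass. Of the 81 with a mean of at least 1 FPKM in all 3 groups, 2 were higher and 2 lower. Of all 14718 genes 4.15% were higher and 0.455% lower. With the fold limit, 1700047G03Rik and Gm36161 remained, beside 1.73% higher and 0.0544% lower of all genes. The median log2 fold change was -0.11. The groups did not overlap in 1 lincRNA, which was lower, and in none that was higher, against 0.347% and 3.22% of all genes.

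That lincRNA was Gm43672, which starts 510 bases from Tbl1xr1, a subunit of nuclear receptor corepressor complexes. It had 2.54, 3.61 and 4.50 FPKM in NC, 0.800, 1.12 and 1.82 in HFD and 0.947, 1.54 and 2.20 in SZ-A. Both groups on the high-fat diet lay below all NC mice and overlapped each other. It was lower by 1.05 ± 0.14 in HFD (adjusted p = 5e-05) and by 0.83 ± 0.15 in SZ-A (adjusted p = 0.00695), both against NC, and SZ-A differed from HFD by 0.21 ± 0.13 (adjusted p = 0.234). Tbl1xr1 was higher by 0.42 in HFD against NC (adjusted p = 0.045) and differed by -0.03 between SZ-A and NC. The other lower lincRNA, 1300002E11Rik, had a difference of -0.62 ± 0.16 (adjusted p = 0.0451), a call lost in 11 of 13 such fits and without both mice that stood apart (adjusted p = 0.0513). Over the 3 group means, HFD was lowest and NC highest in 67 lincRNAs, HFD lowest and SZ-A highest in 26, and NC lowest in 25, of which 11 were highest in HFD and 14 in SZ-A. SZ-A was lowest in the remaining 8. These are means of FPKM, which 1 high mouse can shift, and SZ-A replicate 5 held the highest value of all mice in 36 lincRNAs. The orders without that mouse were not counted.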

How the data were processed

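Poly(A) RNA from eWAT was sequenced as paired-end reads. According to the study's methods and the submitters' processing notes, the authors aligned reads to GRCm38 with HISAT2, counted with featureCounts 1.5.0-p3 and deposited FPKM. The release of the annotation and the filter on genes are not given in the sources used here. All 14776 deposited genes were above 0 in every mouse, and 14770 were found in GENCODE M21. Between 95.9% and 96.3% of the values under 1000 reads were whole reads within 0.01 after multiplication by exon length, which gave the reads. Pairs of groups were compared by limma 3.58.1 (R 4.3.3; eBayes with a variance trend) on log2(FPKM + 1). Genes whose mean in the compared mice was below 0.1 FPKM were left out, and Benjamini-Hochberg adjustment ran over all others. Fold changes on this scale understate those of scarce RNAs. The thresholds were an adjusted p under 0.05, alone or with a log2 fold change above 1.5 in size. On simulated data with 200 genes changed by a log2 fold change of 2, both thresholds called 171 in HFD against NC (14706 genes), 193 in SZ-A against HFD (14695) and 171 in SZ-A against NC (14718), with 3, 1 and 4 unchanged genes. The changed genes were drawn from the more abundant ones and shifted on the log2(FPKM + 1) scale itself. These counts therefore do not show how many changes of scarce lincRNAs would be called. Named lincRNAs are those past both thresholds (at most 8 each way), the 5 largest other rises and falls per comparison, the 8 of highest mean, the members of the listed groups, and the 3 on each side of the limit. The coding partner of 1 lincRNA is not reported here. The members and lists were chosen with earlier results of these data known. The alternatives were other pseudocounts, filters and scalings, all groups in the fit, voom on the reads, the replicate number as a block, leaving out each mouse and, added after the data were seen, leaving out NC replicate 6 with SZ-A replicate 5 and the epithelial marker level as a covariate.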

Additional observations from a re-analysis of the deposited data

Results flagged for a closer look

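Among 117 sets of values, each 1 named lincRNA in the mice of 1 group on the log2(FPKM + 1) scale, 9 held a mouse farther from the rest than Dixon's 95% limit, where chance gives about 1 in 20. SZ-A replicate 5 was the high value in 6 of them: 111 FPKM for Mir142hg, 31.1 for Snhg20, 24.2 for Gm42047, 14.5 for Snhg12, 8.64 for Gm11496 and 3.30 for AI427809. NC replicate 6 was high for Snhg18, at 52.2 FPKM, and low for AW112010, at 2.41 FPKM. HFD replicate 3 was high for Gm10076, at 61.6 FPKM. The cause was not tested.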

How the results depend on the processing

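Most members are scarce, and 56 had under 10 reads in at least 1 mouse, so the pseudocount of 1 held fold changes down by construction. In HFD against NC the 11 lincRNAs past both thresholds became 27 with a pseudocount of 0.1, 33 with 0.01 and 33 with voom on the recovered reads, and all 11 were among them. In SZ-A against HFD the single call became 5, 7 and 7 under these 3 settings. The share of all genes past both thresholds under these settings was not counted, so these counts cannot be set against it. In SZ-A against NC the 2 calls became 1 with a pseudocount of 0.01, 1 with quantile normalization, 1 without the 2 mice that stood apart and 0 with the epithelial covariate, where 1 lincRNA passed by adjusted p. The 1 call under a pseudocount of 0.01 was neither of the 2: 1700047G03Rik had an adjusted p of 0.0508 and Gm36161 of 0.0754, and with the covariate 0.0655 and 0.281. There the 5 by adjusted p became 2 with a pseudocount of 0.01 and 17 with all 3 groups in the fit. Without those 2 mice 2 lincRNAs passed both thresholds in SZ-A against HFD. With the epithelial covariate 30 instead of 64 passed by adjusted p in HFD against NC, and D730003I15Rik turned to 0.49 (adjusted p = 0.60); whether this comes from the score's overlap with the groups was not tested.

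Leaving out 1 mouse at a time gave 8 to 12 lincRNAs past both thresholds and 59 to 69 by adjusted p in HFD against NC, 1 to 2 and 25 to 46 in SZ-A against HFD, and 1 to 2 and 2 to 9 in SZ-A against NC. The count past both thresholds in SZ-A against HFD was 2 without HFD replicate 3 or SZ-A replicate 3, 4, 5 or 6. In SZ-A against NC it was 1 without NC replicate 1, 2 or 6 or SZ-A replicate 3, 5 or 6. By adjusted p it was there 2 without NC replicate 1 or 2 or SZ-A replicate 3 or 6, 3 without NC replicate 5 and 9 without NC replicate 3.

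Replicate numbers did not pair the mice: deviations of same-numbered mice correlated between -0.41 and 0.59. With the replicate number as a block, 11, 1 and 1 lincRNAs passed both thresholds and 51, 29 and 1 passed by adjusted p in the 3 comparisons. Of 112 other recomputed counts each stayed within 1.5 times its main value. For named lincRNAs, fold changes were tallied only in comparisons where the main fit had called them. Of these recomputed fold changes, 772 kept the direction with an adjusted p under 0.05, 75 kept the direction without it, and 1 turned. The fold limit was not applied in this tally, so a lincRNA could fall short of both thresholds and still count as kept. Fold changes without a main call, among them those of Malat1 and Mir142hg that turned, are not in this tally.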
